A study of Mus musculus with 2 samples.

Results

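Pericytes and vascular smooth muscle cells are the mural cells that wrap the endothelial tube, and their transcripts were followed here through a list of 41 genes of contraction, contractile gene control and pericyte identity. Genes were listed by function, with earlier results of these arrays known. Of the 41 genes, 40 were found among the 18194 genes with a probe set annotated to 1 symbol on the array. *Mkl1* was found under its current name, *Mrtfa*, and *Notumos* was not analysed here. Each gene was represented by the probe set with the highest mean of the 2 signals.

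RNA was measured from endothelial cells of normal C57BL/6 mouse brain vasculature, sorted as CD31+ Prom1- (the label CD31+CD133-) or CD31+ Prom1+ (CD31+CD133+), with 1 Affymetrix Mouse Genome array per population. The comparison addressed which transcripts set Prom1+ endothelium apart. The mice had no treatment, and neither their age nor how many gave each RNA was stated in the sources read. The sort used antibodies to CD31 and Prom1, with no marker named against mural cells.

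Mural cells contract by sliding smooth muscle actin over smooth muscle myosin. Myosin light chain kinase starts this movement and myosin phosphatase ends it. The contractile genes are switched on together by serum response factor (SRF) with its partners myocardin and the myocardin-related factors. Pericytes of brain capillaries carry less of this machinery than the smooth muscle of arterioles and are known by markers such as *Rgs5*, *Cspg4*, *Higd1b* and *Ndufa4l2*.

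Transcripts of contraction and of pericyte identity were lower in the array labelled Prom1+. Each signal is given in multiples of the median of its array, and signals under a floor of 1.67 times the median were set to it before a ratio was taken. All 40 reached the floor, 38 of them on both arrays. By a 2-fold rule, 25 of the 40 were lower in the Prom1+ array, 1 was higher and 14 differed by less. Of all 10793 genes measured, 4.77% were at least 2-fold lower and 28.2% at least 2-fold higher. The median log2 ratio of Prom1+ over Prom1- was -1.65 for the 40 genes and 0.66 for all genes measured. Each population has 1 array, so the folds carry no replicate error and no test was possible. In RNA from many cells, fewer cells of a type and less RNA per cell cannot be told apart.

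The array labels, the other cell types and the scaling bear on these values. *Pecam1*, which encodes CD31, had 48.2 times the array median for Prom1- and 69.2 times for Prom1+ cells, and *Prom1* itself had 196 and 159 times, so that on this scale its transcript was not higher in the array named for it. Of 21 pan-endothelial markers measured, 20 differed by less than 2-fold and 1, *Erg*, was 2.01-fold higher. Markers of microglia (9 of 12 measured) and of fibroblasts and meninges (5 of 9) were lower in Prom1+ cells by at least 2-fold as well. Their summed signals were 277 and 370 times the median for Prom1- and 122 and 67.1 times for Prom1+ cells. A single meningeal gene, *Ptgds*, made up most of the second sum, with 305 and 40.3 times, and *Lama1* and, named with its values seen, *Pdgfra* of that list were above 0. Of 5 oligodendrocyte markers 2, *Mbp* (271 and 119 times) and *Mobp* (153 and 56.9 times), were lower and carried most of the sums of 441 and 218 times, while *Cnp* was 2.84-fold higher. Astrocyte markers, lower for 1 of 5, summed to 111 and 110.3 times. The neuronal markers measured, 3 in number, reached the floor in Prom1- cells only, and 2 of them were lower by 2-fold or more. Below the floor on both arrays were 2 of 14 microglial, 3 of 8 astrocyte and 5 of 8 neuronal markers. *Itgam*, *Gfap* and *Rbfox3*, chosen with their values seen, were among these. Other markers of the same lists were over it, with 78.7 and 31.8 times for *C1qb* of microglia and 67.0 and 84.5 times for *Gja1* of astrocytes. *Syt1* of neurons had 10.2 times for Prom1- cells. The part of these cell types in the results was not tested. The shift between arrays was not even across signals, and the median log2 ratio was 0.87 for probe sets with mean log2 signals between 3 and 4 but -0.64 for those between 8 and 9. A trend through the probe sets measured on both arrays, drawn by loess, takes up this shift. After its removal 857 genes (7.88%) were at least 2-fold lower and 594 (5.46%) higher, in place of 515 and 3045. The median log2 ratio of all genes measured was then 0.04. Of the 38 listed genes measured on both arrays, 36 lay below the trend and 27 lay at least 2-fold below it. The share of all genes below the trend was not counted.

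**Figure D1:**
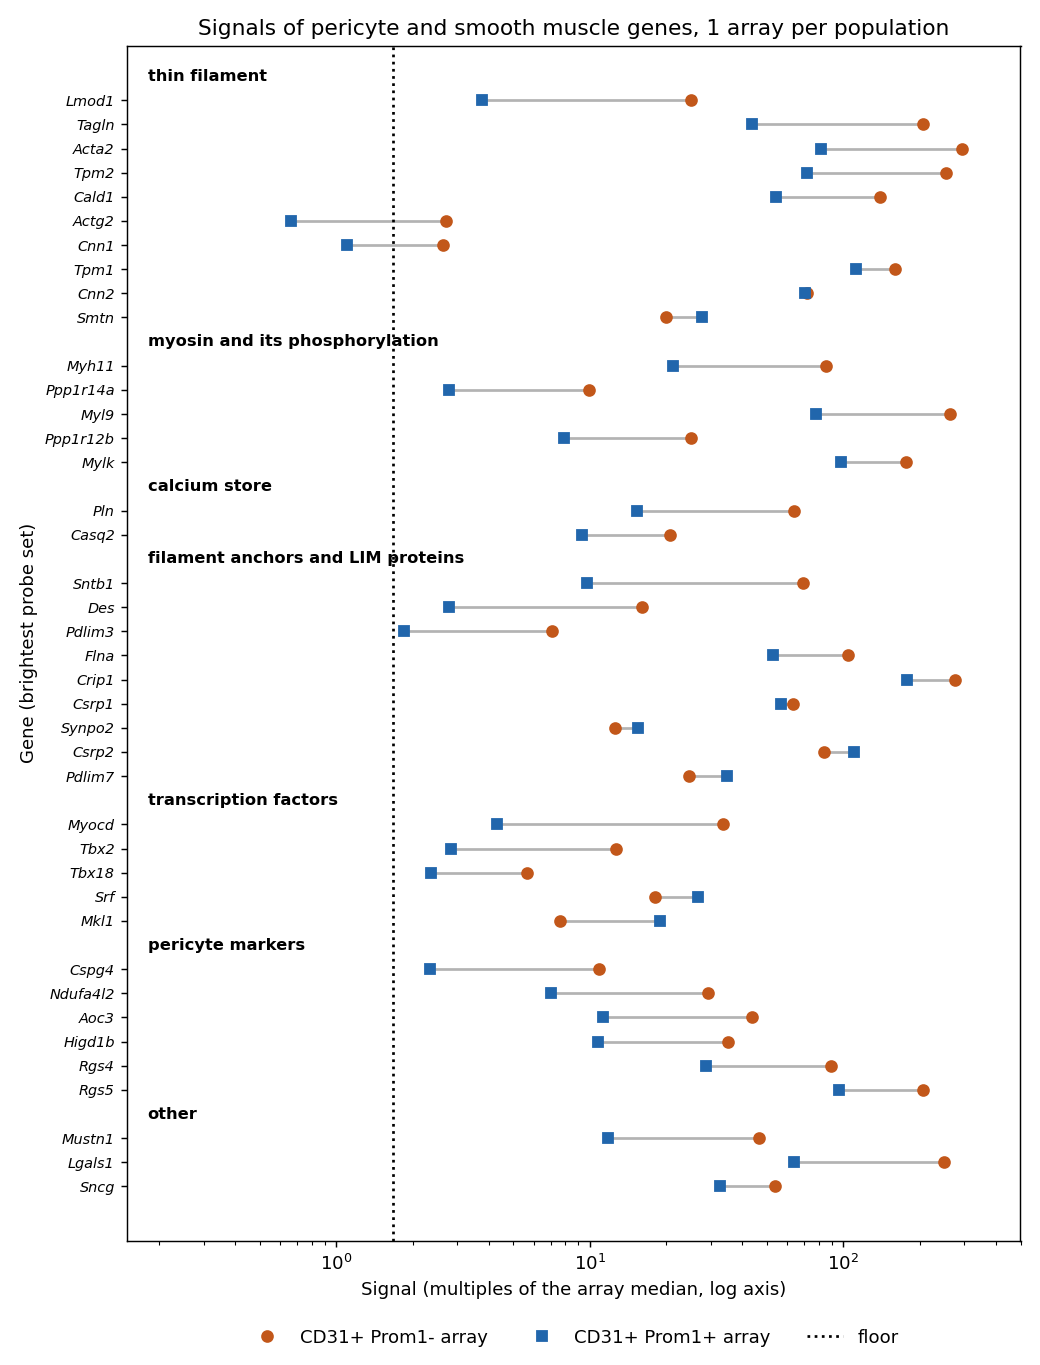
Signal of each gene in the CD31+ Prom1- array (circles) and the CD31+ Prom1+ array (squares), in multiples of the array median on a log axis, grouped by role. The dotted line is the floor of 1.67 times the median. The square lies to the left of the circle for 34 of the 40 genes, while the median log2 ratio of all genes measured was 0.66.

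The thin filament genes were divided. Of 10 genes, 5 were lower in Prom1+ cells by at least 2-fold and 5 differed by less, with a median log2 ratio of -1.02. *Acta2*, smooth muscle alpha-actin, had 295 times the array median for Prom1- and 81.6 times for Prom1+ cells, and was 3.62-fold lower. Transgelin (*Tagln*), an actin-binding protein of smooth muscle, had 206 and 43.6 times and was 4.73-fold lower. Leiomodin 1 (*Lmod1*), which starts new actin filaments in smooth muscle, had 25 and 3.74 times and was 6.69-fold lower. Of the thin filament genes this was the largest difference. Beta-tropomyosin (*Tpm2*), which lies along the actin filament, had 254 and 71.7 times and was 3.54-fold lower. Caldesmon (*Cald1*), which restrains actomyosin, had 140 and 54.4 times and was 2.56-fold lower.

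The remaining thin filament genes were closer between the arrays or near the floor. Gamma-actin of visceral smooth muscle, *Actg2*, had 2.71 times the array median for Prom1- cells, and for Prom1+ cells its 0.662 times was below the floor. Calponin 1 (*Cnn1*), the smooth muscle calponin, had 2.63 and 1.11 times. For both only a bound can be given, at least 1.62-fold and at least 1.57-fold lower, and a larger difference may be hidden by the floor. *Tpm1* had 160 and 113 times and was 1.43-fold lower. *Cnn2*, a calponin of many cell types, had 72.2 and 70.6 times. Smoothelin (*Smtn*) had 19.9 and 27.7 times, 1.39-fold higher. The log2 ratio of *Smtn* was 0.48 and lay 0.33 below the trend of probe sets of its signal, within the SD of 0.54 between probe sets of the same gene over 3930 genes, a technical measure that leaves out any spread between animals.

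Myosin and the enzymes that set its phosphorylation were lower throughout, 4 of 5 by at least 2-fold, with a median log2 ratio of -1.75. Smooth muscle myosin heavy chain (*Myh11*), the most restricted marker of the lineage, had 85.4 times the array median for Prom1- and 21.4 times for Prom1+ cells and was 4-fold lower. Its regulatory light chain *Myl9* had 263 and 78.2 times and was 3.36-fold lower. *Ppp1r14a*, the inhibitor of myosin phosphatase that keeps smooth muscle contracted, had 9.91 and 2.78 times and was 3.56-fold lower. Genes that prolong contraction and genes that end it were thus on the same side. *Ppp1r12b*, a targeting subunit of that phosphatase, had 25 and 7.93 times and was 3.16-fold lower. Its other probe sets were under the floor on both arrays. Myosin light chain kinase (*Mylk*) had 178 and 98.4 times, 1.81-fold lower by its brightest probe set. A further probe set had 81.2 and 31.5 times and was 2.58-fold lower.

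Both genes of the calcium store were lower. Phospholamban (*Pln*), the brake on the calcium pump of the sarcoplasmic reticulum, had 63.7 times the array median for Prom1- and 15.3 times for Prom1+ cells and was 4.16-fold lower. Its other probe sets were 3.61-fold and 6.22-fold lower. Calsequestrin 2 (*Casq2*), which binds calcium inside the store, had 20.7 and 9.33 times and was 2.22-fold lower. Its only probe set is of a kind (suffix _s_at) whose probes can bind several transcripts. *Pln* and *Casq2* are also genes of the heart. Of 12 genes of striated muscle, 12 were under the floor on both arrays, the highest being *Tnni3* at 1.33 times the median in the Prom1+ array. The source of the 2 transcripts was not tested.

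Proteins that anchor filaments were divided, with 3 of 9 at least 2-fold lower and 6 within 2-fold. Beta-1-syntrophin (*Sntb1*), an adaptor of the dystrophin complex at the membrane, had 69.4 times the array median for Prom1- and 9.73 times for Prom1+ cells and was 7.13-fold lower. Desmin (*Des*), the muscle intermediate filament that also marks pericytes, had 16 and 2.77 times and was 5.78-fold lower. A second *Des* probe set was under the floor on both arrays. *Pdlim3*, a PDZ and LIM protein of muscle, had 7.11 and 1.86 times, the latter just over the floor, and was 3.83-fold lower. These 3 stood apart from the other anchors. Filamin A (*Flna*), which crosslinks actin in most cells, had 105 and 52.6 times and was 1.99-fold lower, just short of the 2-fold rule, while *Rgs5* at 2.15-fold was the gene just past it. *Crip1*, a small LIM protein, had 275 and 178 times and was 1.54-fold lower, although probe sets of its signal were lower by nearly as much and it lay 0.19 below the trend on the log2 scale. The LIM proteins *Csrp1* (63.1 and 56.6 times) and *Csrp2* (84.1 and 110 times) and the PDZ and LIM protein *Pdlim7* (24.7 and 34.6 times) differed by at most 1.40-fold. The actin-bundling protein *Synpo2* had no settled direction. Its brightest probe set had 12.5 and 15.5 times, another was 1.98-fold lower at 6.59 and 3.33 times, and the last was 3.07-fold higher at 5.15 and 15.8 times.

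**Figure D2:**
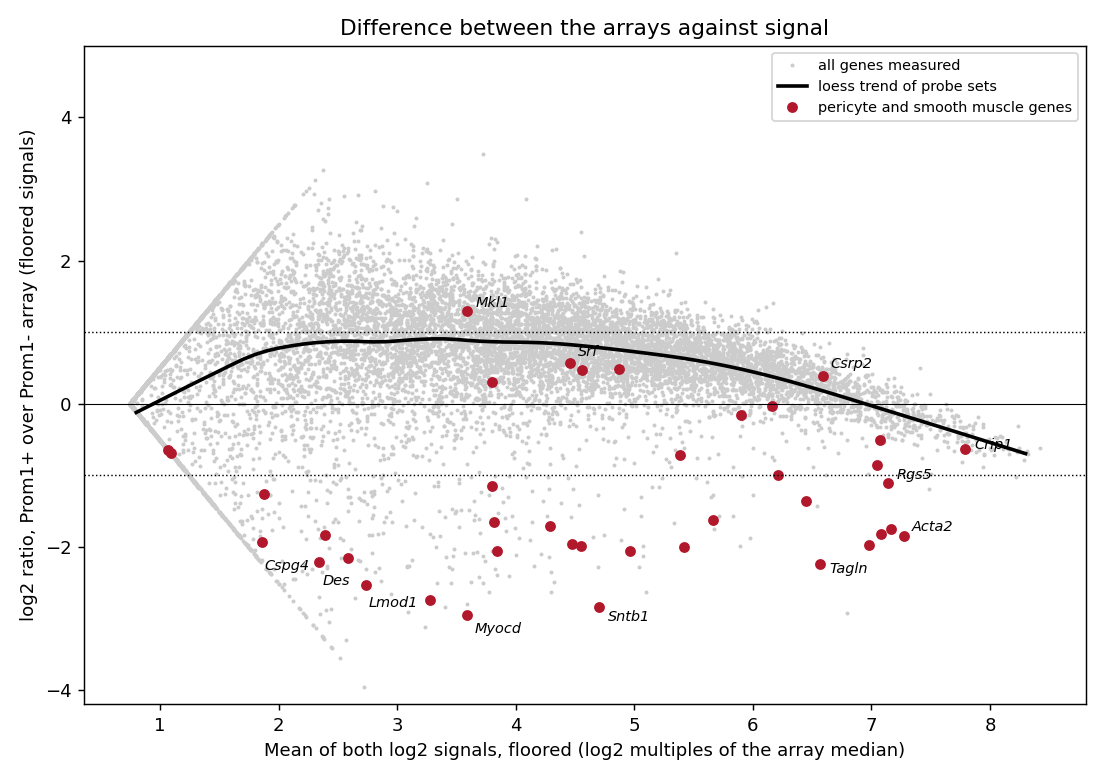
Log2 ratio of the Prom1+ over the Prom1- array against the mean of both floored log2 signals. Grey points are the 10793 genes measured, red points the 40 pericyte and smooth muscle genes, the black line the loess trend of probe sets measured on both arrays, and dotted lines mark 2-fold. Of the red points measured on both arrays 36 of 38 lie below the trend, and *Csrp2* and *Mkl1* (now *Mrtfa*) lie above it.

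Transcription factors of the mural lineage were lower, while *Mrtfa* lay above 0 under every scaling. *Srf* lay above 0 except with quantile normalization (-0.19) and loess (-0.26). Myocardin (*Myocd*), the coactivator that commits cells to smooth muscle, had 33.5 times the array median for Prom1- and 4.32 times for Prom1+ cells. It was 7.75-fold lower, the largest difference of the 40 genes. A second *Myocd* probe set was under the floor on both arrays. *Tbx2* and *Tbx18* are T-box factors, and *Tbx18* marks mural cells of the brain. *Tbx2* had 12.7 and 2.84 times and was 4.48-fold lower. *Tbx18* had 5.67 and 2.37 times and was 2.39-fold lower. *Srf* had 18.1 and 26.8 times, 1.48-fold higher, and its second probe set had a log2 ratio of 0.41 beside 0.56. *Mrtfa*, the actin-sensing coactivator of SRF found in many cell types, had 7.65 and 18.9 times and was 2.47-fold higher, the only listed gene past 2-fold in that direction. Its log2 ratio of 1.30 lay 0.42 above the trend, within the SD of 0.54 between probe sets of the same gene. *Mrtfa* has 1 probe set, and 28.2% of all genes measured were at least 2-fold higher.

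Among 13 other SRF cofactors and targets measured, 3 were at least 2-fold lower, 1 was at least 2-fold higher and 9 differed by less, with a median log2 ratio of -0.04. The lower ones were the integrin *Itga8* (11.6 and 2.41 times the median, 4.82-fold), *Jph2*, which couples membrane and calcium store (9.46 and 2.88 times, 3.29-fold), and *Nexn*, an actin-binding protein of muscle named after its values were seen (at least 3.54-fold). The SRF partner *Elk1* was 2.50-fold higher at 5.63 and 14.1 times, and lay 0.42 above the trend of probe sets of its signal. Of all genes measured, 4.77% were at least 2-fold lower and 28.2% at least 2-fold higher. Broadly expressed cofactors and targets such as *Mrtfb* (70.4 and 111 times) and vinculin (*Vcl*, 185 and 148 times) differed by less than 2-fold.

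SRF binds a DNA element of 10 bases called the CArG box. The pattern sought, the same on both strands, was CC and GG at the ends with only A or T between them. RefSeq promoters (GRCm38.p6, 250 bases before to 50 after a gene's start) were matched for 29 of the 40 genes. An exact match was found in 3 of them (10.3%). Boxes that depart from this pattern or lie outside these bases were not counted. *Tagln*, *Myh11* and *Actg2* are among the genes with no matched promoter. Among all 27025 genes with a promoter 1.81% held it, as did 2 of 17 non-muscle relatives and 0 of 18 genes of another mural list described further on. The 3 genes are *Myl9*, which was 3.36-fold lower in the Prom1+ array, *Srf*, which was 1.48-fold higher, and *Cnn2*, which was 1.02-fold lower. A match is a run of letters and not a shown site of binding. The 250 bases before the start are given 5′ to 3′ to show where the boxes, in capitals, lie. They begin 161 bases before the start in *Myl9* (chr2:156775214-156775463, plus strand), 82 and 62 bases before it in *Srf* (chr17:46556163-46556412, minus strand), and 56 bases before it in *Cnn2* (chr10:79988350-79988599, plus strand).
Myl9: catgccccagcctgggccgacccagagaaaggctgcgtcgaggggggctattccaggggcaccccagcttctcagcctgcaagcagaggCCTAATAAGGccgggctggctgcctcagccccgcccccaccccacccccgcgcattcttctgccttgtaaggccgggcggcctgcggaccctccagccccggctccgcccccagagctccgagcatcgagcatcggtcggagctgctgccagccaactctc
Srf: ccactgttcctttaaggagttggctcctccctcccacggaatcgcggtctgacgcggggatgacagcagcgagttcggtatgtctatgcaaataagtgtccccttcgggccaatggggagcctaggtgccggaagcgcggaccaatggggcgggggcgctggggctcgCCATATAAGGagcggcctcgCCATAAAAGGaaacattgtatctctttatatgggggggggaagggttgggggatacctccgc
Cnn2: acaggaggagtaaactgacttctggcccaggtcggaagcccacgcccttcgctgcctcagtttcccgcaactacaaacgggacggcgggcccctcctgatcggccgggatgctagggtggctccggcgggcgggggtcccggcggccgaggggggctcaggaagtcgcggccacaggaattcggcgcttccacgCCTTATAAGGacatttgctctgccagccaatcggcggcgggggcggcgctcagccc
On the reported scale the 3 genes that share the box did not share a direction, *Cnn2* being near 0. All 3 lay below the trend of probe sets of their signal, *Myl9* by 1.64, *Cnn2* by 0.41 and *Srf* by 0.26. A second element, CATTCC or its reverse complement GGAATG, which TEAD factors bind in muscle promoters, was found in 10 of the 29 genes (34.5%) and in 16.6% of all 27025 genes with a promoter. The other mural list held it in 5 of 18 genes, the non-muscle relatives in 3 of 17 and the pan-endothelial markers in 2 of 12. Where it adjoins a CArG box, this element can share the CC or GG at an end of that box.

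Every pericyte marker measured was at least 2-fold lower, 6 of 6, with a median log2 ratio of -1.83. *Cspg4*, the surface proteoglycan NG2, had 10.9 times the array median for Prom1- and 2.34 times for Prom1+ cells and was 4.65-fold lower. *Ndufa4l2*, a mitochondrial protein enriched in pericytes, had 29.4 and 7.02 times and was 4.19-fold lower. *Aoc3*, the amine oxidase VAP-1 of smooth muscle and pericytes, had 43.8 and 11.2 times and was 3.90-fold lower. These 3 ratios exceeded those of the other markers. *Higd1b*, another mitochondrial protein of pericytes, had 35.2 and 10.8 times and was 3.26-fold lower. *Rgs4* and *Rgs5*, which switch off signalling by G protein-coupled receptors, lie next to each other on chromosome 1 with no annotated gene between them. *Rgs4* had 89.4 and 28.8 times and was 3.10-fold lower. *Rgs5*, a widely used pericyte marker, had 206 and 95.9 times and was 2.15-fold lower. Its other measured probe sets were 2.20-fold and 2.42-fold lower. Of 7 other RGS genes measured, 1, *Rgs1*, was at least 2-fold lower (10.8 and 2.41 times), 3, among them *Rgs3* and *Rgs16*, were at least 2-fold higher and 3 differed by less.

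The 3 remaining genes were lower as well, 2 of them by at least 2-fold. Galectin 1 (*Lgals1*), a sugar-binding protein of mesenchymal cells, had 251 times the array median for Prom1- and 63.7 times for Prom1+ cells and was 3.93-fold lower. *Mustn1*, a small nuclear protein of muscle and skeleton, had 46.5 and 11.7 times and was 3.96-fold lower. Gamma-synuclein (*Sncg*) had 53.6 and 32.5 times and was 1.65-fold lower.

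A second list of mural genes, which shares none with the 40, was lower too, and its median stayed between -2.08 and -0.49 under all processing tried. Of 22 measured, 18 were lower in Prom1+ cells by at least 2-fold, none was at least 2-fold higher and 4 differed by less, with a median log2 ratio of -1.55. Over the processing tried these counts ran from 6 to 20 lower and from 0 to 2 higher. *Notch3*, the Notch receptor of mural cells, had 121 times the array median for Prom1- and 32.8 times for Prom1+ cells and was 3.69-fold lower. *Gucy1a1*, a subunit of the nitric oxide receptor, had 72.7 and 14.9 times and was 4.88-fold lower. *Cox4i2*, a respiratory chain subunit, had 13.8 and 3.01 times and was 4.58-fold lower. *Vtn*, the matrix protein vitronectin, had 138 and 69.2 times and was 2.00-fold lower. On the reported scale the forkhead factors *Foxc1* (94.0 and 107 times) and *Foxf2* (41.2 and 70.0 times) were on the other side of 0, at 1.14-fold and 1.70-fold higher. Signalling genes of contraction were mixed. Of 10 measured, the calcium-gated potassium channel *Kcnma1* (14.8 and 1.24 times) and the calcium channel *Cacna1c* (10.8 and 1.44 times) were at least 8.81-fold and at least 6.44-fold lower, both named after their values were seen. The general mediators *Rhoa* (105 and 133 times) and *Rock1* (81.1 and 77.9 times) differed by less than 2-fold, and *Itpr2* and *Arhgef1* were 3.17-fold and 2.27-fold higher.

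Within the protein families of the contractile apparatus, the smooth muscle gene and its relatives used by most cells can be set side by side. The 9 families were grouped with the values known. In them, 9 of 14 genes of the pericyte and smooth muscle list and 1 of 16 non-muscle relatives were lower in Prom1+ cells by at least 2-fold. Of the 16 relatives 2 were at least 2-fold higher, beside 28.2% of all genes measured. The median log2 ratio of all 20 non-muscle relatives measured was 0.05, and it moved from -0.50 with the trimmed means set equal to 1.10 with the hybridization controls set equal. *Actb*, cytoplasmic actin, had 301 times the array median for Prom1- and 211 times for Prom1+ cells, 1.43-fold lower beside 3.62-fold for *Acta2*. *Myh10*, a non-muscle myosin, had 28.2 and 57.7 times and was 2.04-fold higher, beside 4-fold lower for *Myh11*. The light chain *Myl12b* had 254 and 192 times, 1.32-fold lower beside 3.36-fold for *Myl9*. Against the trend of probe sets of their signal, *Actb* lay 0.02, *Myh10* 0.38 and *Myl12b* 0.03 above it on the log2 scale. *Acta2* lay 1.68, *Myh11* 2.63 and *Myl9* 1.64 below it. The phosphatase inhibitors lay on opposite sides, where *Ppp1r14b* was 4.95-fold higher, at 6.37 and 31.5 times, and *Ppp1r14a* 3.56-fold lower. Some genes departed from this pattern. *Pdlim1* was 4.80-fold lower at 18.6 and 3.87 times, while *Pdlim7* of the list was 1.40-fold higher. *Cnn2* of the list had a log2 ratio of -0.03, beside -0.49 for its relative *Cnn3*, named with its values seen. Actins and myosin light chains are close in sequence, and the probe set of *Acta2* has the suffix _s_at, by which the maker marks probes that can bind several transcripts, so part of its signal may come from a relative.

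**Figure D3:**
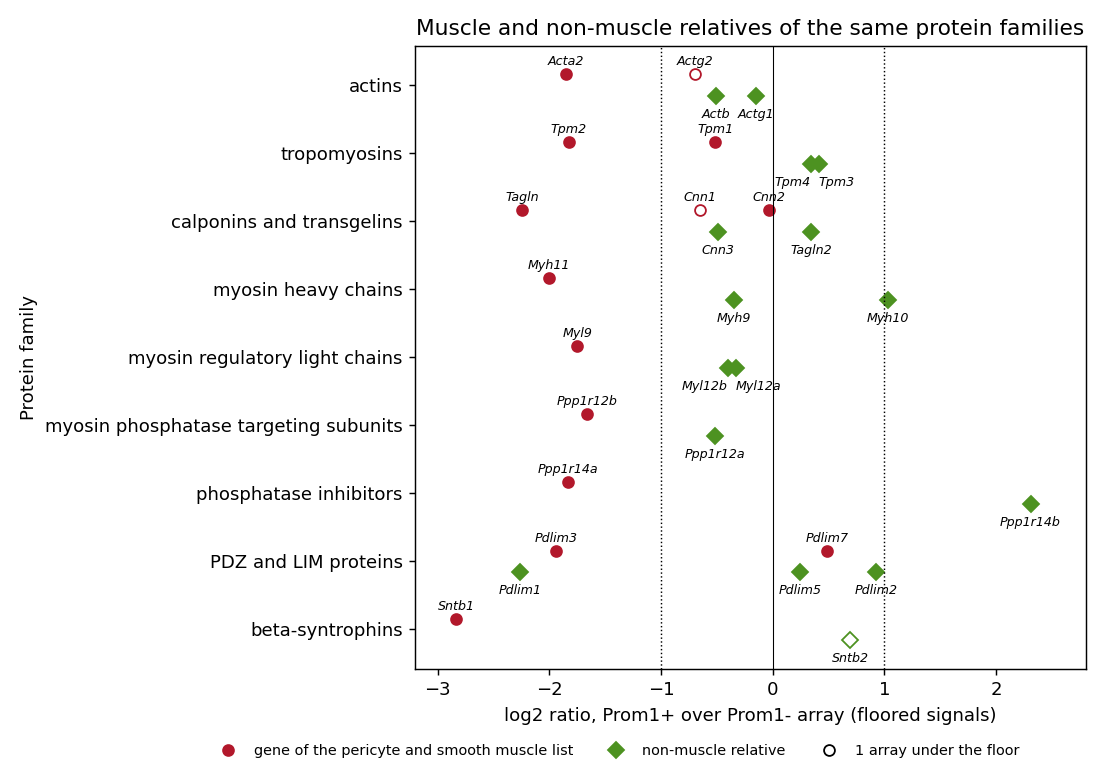
Log2 ratio of the Prom1+ over the Prom1- array for 9 protein families, with genes of the pericyte and smooth muscle list as circles and non-muscle relatives as diamonds. Open symbols have 1 array under the floor and are bounds, and dotted lines mark 2-fold. Circles past the left dotted line number 9 of 14 and diamonds 1 of 16.

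Probe sets of the same gene mostly had the same sign. The 40 genes had 82 probe sets, of which 70 reached the floor on at least 1 array, 43 of them lower in Prom1+ cells by at least 2-fold and 2 at least 2-fold higher. Of all genes measured, by their brightest probe sets, 4.77% were lower and 28.2% higher. Shares over all probe sets, or over all genes with several, were not counted. Of 17 genes with several measured probe sets, all were below 0 in 13 and all at least 2-fold lower in 6, namely *Acta2*, *Lgals1*, *Pln*, *Rgs5*, *Sntb1* and *Tbx18*. The 4 measured probe sets of *Sntb1* lay between log2 ratios of -2.83 and -2.38. Signs differed in 2 genes, *Synpo2* and *Csrp1*. For *Tpm1* the brightest probe set gave the smallest difference, with 1.43-fold beside 2.50-fold (63.4 and 25.4 times) and 2.65-fold (4.73 and 1.78 times) by the others. *Cald1* ranged from a bound of 1.18-fold to 6.30-fold lower over its 5 probe sets.

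**Figure D4:**
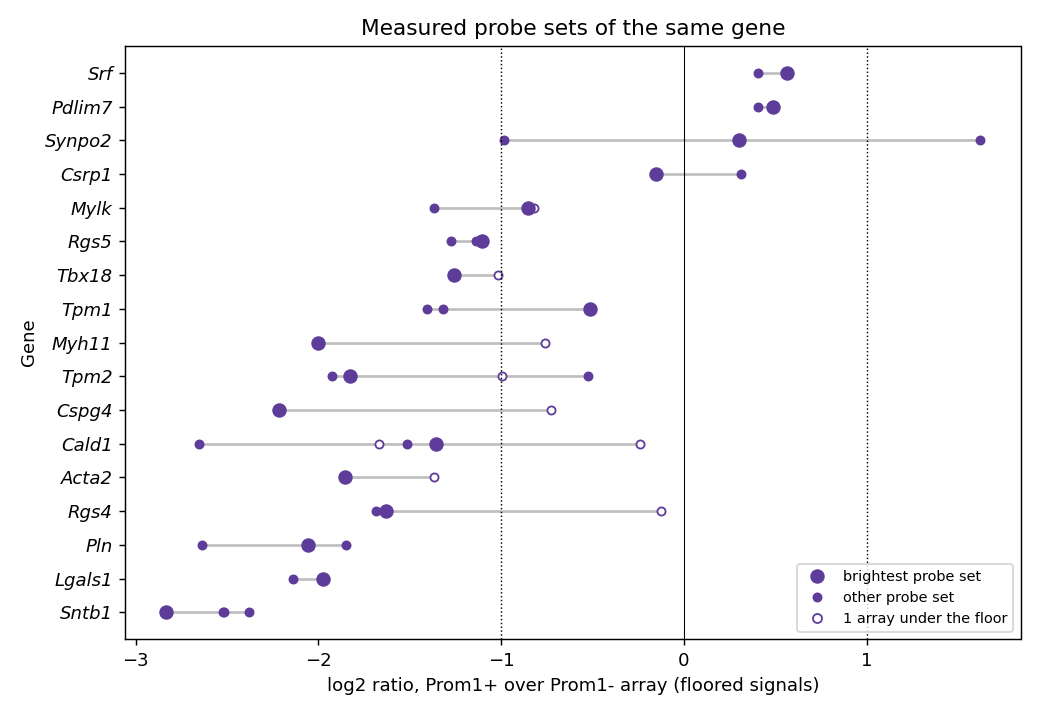
Log2 ratio of the Prom1+ over the Prom1- array for the measured probe sets of the 17 genes that have several. The large symbol is the brightest probe set, open symbols have 1 array under the floor, and dotted lines mark 2-fold. In 13 of the 17 genes every symbol lies left of 0.

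The distance between these genes and all genes held under each scaling, while the counts did not. With the hybridization controls set equal, which raised all signals of Prom1+ relative to Prom1-, 8 of the 40 genes were at least 2-fold lower and 7 higher, beside 2.21% and 79% of all genes. The 8 were *Cspg4*, *Des*, *Lmod1*, *Myocd*, *Ndufa4l2*, *Sntb1*, *Tagln* and *Tbx2*, which were at least 2-fold lower with every other scaling, floor and choice of probe sets too. All 25 genes called lower had a log2 ratio below 0 under every processing. Of the 9 other genes below 0, 7 turned above it with the hybridization controls set equal, among them *Flna*, *Mylk* and *Tpm1*. *Csrp2*, *Pdlim7*, *Smtn*, *Srf* and *Synpo2*, above 0 as reported, were each below 0 under at least 1 processing.

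Scalings that brought the median of all genes near 0 moved more listed genes past 2-fold. With loess 27 were lower and 0 higher, beside 7.88% and 5.46% of all genes. Quantile normalization gave 27 and 0, beside 7.84% and 6.23%. With the trimmed means set equal 30 were lower and 0 higher, beside 8.04% and 7.99%. With the pan-endothelial markers set equal the counts were 26 and 1, beside 4.88% and 25.9%. Under a 3-fold threshold 21 were lower and 0 higher (2.37% and 6.6% of all genes), and under 1.5-fold 31 and 1 (7.55% and 54.6%). A floor of 50 in place of 100 on the target scale gave 27 and 1 (6.89% and 28.2%), no floor 27 and 1 (18.6% and 28.2%), and a floor of 200 gave 24 and 1 of the 38 genes then measured (3.11% and 26.5%). Averaging the probe sets of each gene gave 27 and 1 (4.31% and 26.1%). Without _x_at and _s_at probe sets 24 and 1 of 39 genes passed (4.62% and 29.1%). Over all of these the median of the listed genes lay 1.80 to 2.31 below that of all genes on the log2 scale.

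**Figure D5:**
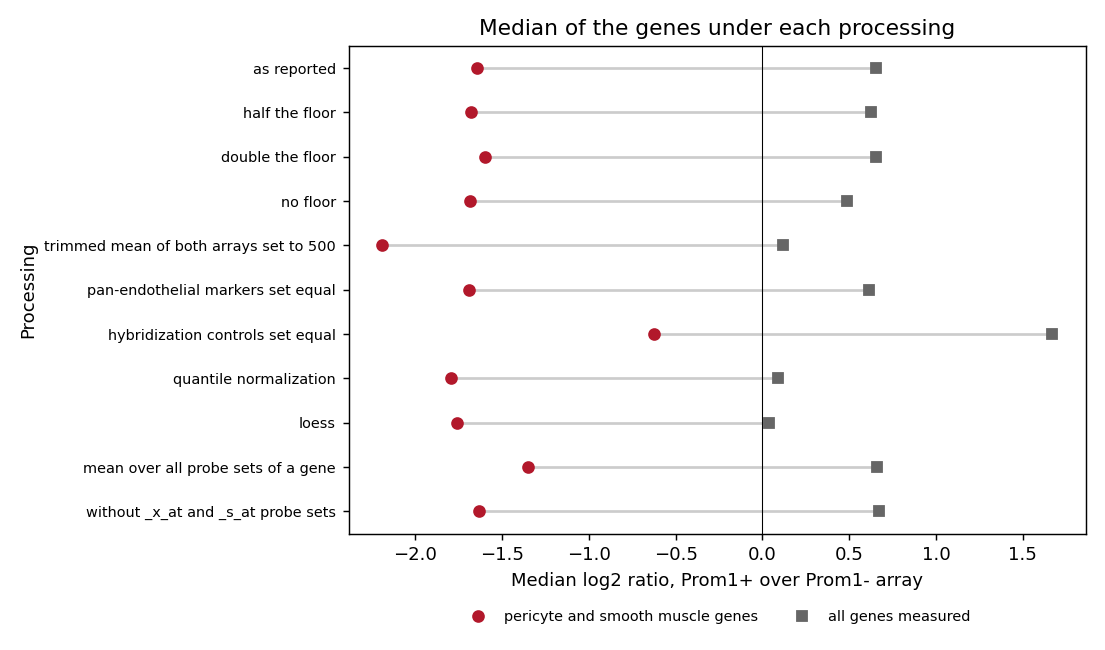
Median log2 ratio of the Prom1+ over the Prom1- array for the pericyte and smooth muscle genes (circles) and for all genes measured (squares) under each processing. The circle lies 1.80 to 2.31 left of the square in every row, while the place of both against 0 moves with the scaling.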

How the data were processed

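RNA was extracted from each sorted population, amplified, labeled with biotin and hybridized to 1 array per population. Signals were made by MAS5 (named without a version in the submitters' processing notes), scaled by the authors to a target of 500, and then normalized in GeneSpring. Each deposited log2 value is relative to its array's own median, so both columns have a median of 0, and the lowest value is -6.64. Detection calls and earlier signals were not used here.

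The log2 values were taken back to multiples of the median. The floor is 100 on the target scale, translated to 1.67 by averaging the 2% trimmed means of the arrays, and 42.9% and 44.6% of 45101 probe sets reached it in the Prom1- and the Prom1+ array. The 27 Bacillus controls were at most 0.276 times the median. The number of arrays, 1 per population, limits the precision. Differences were counted by the 2-fold rule with no test. The platform annotation named the probe sets, 34958 of them with 1 symbol, and older names were updated through RefSeq identifiers. The genes, lists and rules were chosen with earlier results of these data known. All 40 listed genes found are named. From each further list the rule allows up to 4 bright genes and the 2 largest ratios each way, of which some are printed, and other genes are said to be named with values seen. Alternatives were other floors (50, 200 and none), thresholds of 1.5-fold and 3-fold, 5 scalings, loess with a span of 0.2 among them, and other choices of probe sets. The fold rule and the loess were tested on simulated data. The software was matplotlib 3.10.9, statsmodels 0.14.6, scipy 1.17.1, numpy 2.4.6 and pandas 2.3.3 under Python 3.11.15.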

Additional observations from a re-analysis of the deposited data

How the results depend on the processing

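There were 12 alternatives. Under those that kept the 2-fold rule the count of lower genes, 25 of 40, stayed between 24 and 30, with 1 exception. With the hybridization controls set equal 8 were lower and 7 higher. A 3-fold threshold gave 21 lower genes and a 1.5-fold threshold 31. The count of higher genes, 1, was 0 with a 3-fold threshold, with the trimmed means set to 500, with quantile normalization and with loess. The median log2 ratio was -2.19 with the trimmed means set to 500 and -0.63 with the hybridization controls set equal, beside -1.65 as reported, and it stayed below 0 under every alternative. The shift of all genes moved with it, to a median of 0.12 and 1.67 beside 0.66. Over the alternatives 254 to 3388 of all genes were lower and 594 to 9071 higher, the counts of 3388 lower and 5124 higher coming with no floor. Of 397 values of single genes under an alternative, 123 moved by over 0.54, the SD among probe sets of 1 gene, and no gene past 2-fold changed direction. The hybridization controls were 9 probe sets. No paired analysis was possible because each population has 1 array. Signal over background limits *Actg2* and *Cnn1*, whose lower signal is under the floor.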
